A study of Homo sapiens with 6 samples.

Results

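Long intergenic noncoding RNAs that carry only a number, the LINC genes, were examined in HCT-116 cells, an established line of human colorectal carcinoma. The deposited table lists 659 rows whose whole gene name is LINC followed by digits, out of 27918 genes and loci. The members were chosen by level: averaged over the 6 libraries, a row had to reach 0.1 FPKM, and 196 rows (29.7% of the LINC rows) did. FPKM counts fragments per kilobase of transcript and per mapped fragments of the library, so levels can be set side by side between genes. The rows stand for 195 names, since LINC02256 holds 2 of them, and 139 carry an Ensembl identifier while 57 are loci assembled by StringTie. The remaining 463 rows lay under the threshold, none of them at 0 in every library.

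The 3 libraries of the GapNC group came from HCT-116 cells transfected with a control GapmeR, and the 3 of the GapC9 group from HCT-116 cells transfected with a GapmeR against the noncoding RNA CASC9, each at 10 nM. A GapmeR is an antisense oligonucleotide with a DNA center that lets RNase H cut the paired RNA. For CASC9 the table gives 0, 0.0108 and 0 FPKM in GapNC libraries 1, 2 and 3 and 0.0528, 0.107 and 0 FPKM in GapC9 libraries 1, 2 and 3 (exact two-sided permutation p = 0.4, where 0.1 is the smallest p that this design allows). The targeted RNA was thus not listed lower in the treated group. Its mean over the 6 libraries, 0.0285 FPKM, lay under the threshold of 0.1 FPKM, so these values cannot show whether it fell. The paper reports lower CASC9 by RT-qPCR in HCT-116 cells given the CASC9 GapmeR. Directions below are those between libraries as labelled. Nothing in the labels says that the libraries of a group came from separate cultures, so p-values measure only the spread between these libraries. The epithelial markers EPCAM, KRT8, KRT18, KRT19, CDH1 and CDX2 were present, VIL1 and LGALS4 lay under 0.1 FPKM, and the blood and endothelial markers PTPRC, CD3E, PECAM1 and VWF averaged at most 0.0233 FPKM. Of the fibroblast pair, COL1A1 averaged 1.21 FPKM and COL1A2 0.000309 FPKM, and 0 of the 7 markers that could be tested was called by either rule used below (limma, with EPCAM alone at an unadjusted p under 0.05, 0.0256).

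Genes named LINC are long noncoding RNAs that received a number because no function or neighboring gene had given them a name. They are transcribed by RNA polymerase II, mostly spliced, and as a class less abundant and more restricted to particular cell types than mRNAs. Some act near their own site of transcription, some pair with proteins or microRNAs elsewhere, several were later found to encode small proteins, and for most no role is known.

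The promoters of 6 members that passed the adjusted test described below are shown. Of those with a RefSeq start within 500 bases of the start used here, these members had the highest mean FPKM in each direction. Their promoters differ in base composition and in the classical promoter motifs. Each is the RefSeq window of GRCh38.p14 from 250 bases before to 50 bases after the annotated start, read 5′ to 3′ on the strand of the gene. Capitals mark the GC box GGGCGG, the CCAAT box and the TATA box TATAAA, searched on both strands, so that CCGCCC and ATTGG are the reverse complements. LINC00973 lies at chr3:98980805-98981104 on the plus strand, LINC02535 at chr6:85390137-85390436 on the minus strand, LINC00847 at chr5:180830707-180831006 on the plus strand, LINC00094 (RefSeq BRD3OS) at chr9:134025231-134025530 on the plus strand, LINC00640 at chr14:51333143-51333442 on the plus strand and LINC00460 at chr13:106376314-106376613 on the plus strand.
LINC00973: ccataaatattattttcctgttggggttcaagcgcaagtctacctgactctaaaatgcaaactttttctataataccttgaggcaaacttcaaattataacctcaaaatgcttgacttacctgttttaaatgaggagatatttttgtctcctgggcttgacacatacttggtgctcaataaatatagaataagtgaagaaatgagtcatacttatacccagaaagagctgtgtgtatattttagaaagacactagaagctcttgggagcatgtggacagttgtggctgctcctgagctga
LINC02535: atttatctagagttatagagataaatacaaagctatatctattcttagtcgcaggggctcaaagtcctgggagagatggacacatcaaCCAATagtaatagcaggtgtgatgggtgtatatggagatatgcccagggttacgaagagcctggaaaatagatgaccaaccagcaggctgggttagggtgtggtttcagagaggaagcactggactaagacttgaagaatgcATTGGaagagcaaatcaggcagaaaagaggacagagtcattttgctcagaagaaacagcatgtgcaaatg
LINC00847: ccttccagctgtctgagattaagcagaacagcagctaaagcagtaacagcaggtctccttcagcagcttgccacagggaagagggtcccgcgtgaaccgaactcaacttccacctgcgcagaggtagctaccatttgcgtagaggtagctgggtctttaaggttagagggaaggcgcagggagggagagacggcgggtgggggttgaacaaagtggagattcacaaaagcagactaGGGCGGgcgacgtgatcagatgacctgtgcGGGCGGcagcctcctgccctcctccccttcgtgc
LINC00094: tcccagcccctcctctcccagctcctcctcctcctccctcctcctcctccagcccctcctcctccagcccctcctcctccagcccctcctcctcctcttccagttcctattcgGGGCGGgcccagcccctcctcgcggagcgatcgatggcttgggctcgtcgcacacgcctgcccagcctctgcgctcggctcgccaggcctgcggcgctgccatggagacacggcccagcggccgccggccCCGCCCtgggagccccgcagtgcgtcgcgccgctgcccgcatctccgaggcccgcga
LINC00640: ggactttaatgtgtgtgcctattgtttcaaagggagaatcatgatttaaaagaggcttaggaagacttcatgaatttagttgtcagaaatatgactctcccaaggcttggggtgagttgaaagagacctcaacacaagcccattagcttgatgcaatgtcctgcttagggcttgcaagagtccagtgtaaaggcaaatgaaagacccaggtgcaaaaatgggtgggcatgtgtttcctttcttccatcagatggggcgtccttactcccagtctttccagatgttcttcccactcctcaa
LINC00460: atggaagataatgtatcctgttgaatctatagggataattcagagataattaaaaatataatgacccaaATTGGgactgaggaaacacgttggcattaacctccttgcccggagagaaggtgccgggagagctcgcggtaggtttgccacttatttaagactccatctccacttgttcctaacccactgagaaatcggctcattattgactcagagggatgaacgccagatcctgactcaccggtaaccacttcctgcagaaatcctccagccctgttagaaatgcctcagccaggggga

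The window of LINC00094 had the highest GC content of the 6, 74.3%, and held 2 GC boxes. LINC00847 also held 2 GC boxes, at 58.0% GC. The window of LINC02535 held 2 CCAAT boxes and that of LINC00460 held 1. No match to the 3 motifs was found for LINC00973, whose window had 37.3% GC, or for LINC00640. RefSeq windows were matched for 135 of the 196 members, and 121 began within 500 bases of the start used here. Among these 121, the GC box was found in 54 (44.6%), the CCAAT box in 46 (38.0%) and the TATA box in 9 (7.44%). Of all 35116 RefSeq windows of the same length, 45.0%, 34.6% and 11.5% held them. These are matches of letters, not binding sites.

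The LINC RNAs were scarce. The median member had a mean of 0.316 FPKM, with quartiles at 0.173 and 0.708 FPKM, whereas the median of all 16028 genes and loci tested was 2.38 FPKM. A mean of at least 1 FPKM was reached by 32 members (16.3%), as against 63.8% of all genes tested, and 4 members exceeded 5 FPKM. These levels chose the members and are given as a description. Just inside the threshold stood LINC02041 at 0.103 FPKM, LINC00632 at 0.101 FPKM and LINC02300 at 0.101 FPKM, and just outside it LINC00412 at 0.0999 FPKM, LINC01144 at 0.0994 FPKM and LINC01032 at 0.0961 FPKM. Low FPKM values move in steps, and taking the commonest step as 1 fragment puts the libraries at 22.8 to 24.3 M fragments (M, mega). The median member then rested on about 9.69 fragments per library, and 99 members (50.5%) on fewer than 10.

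**Figure D1:**
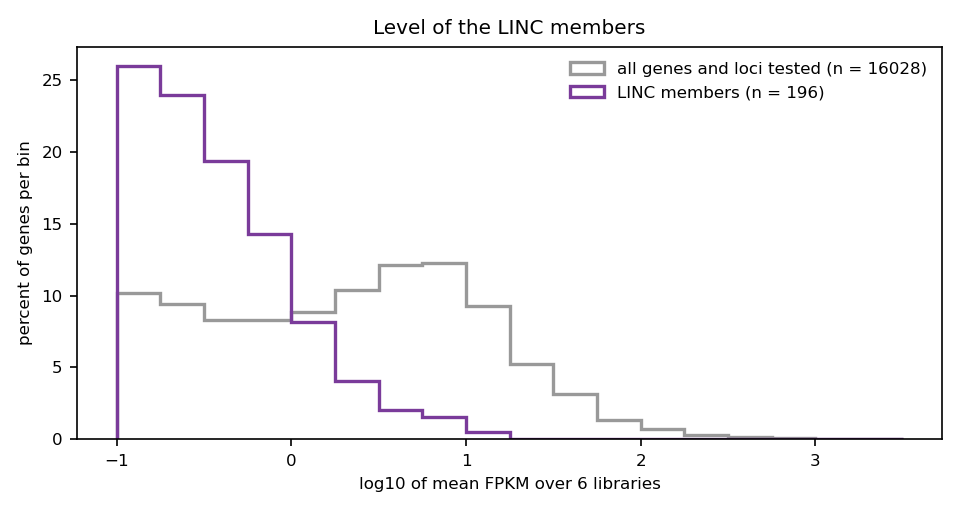
Histogram of the mean FPKM over 6 libraries (x axis, log10) for the 196 LINC members and for all 16028 genes and loci tested, as percent of each set per bin (y axis). The LINC RNAs pile up next to the threshold of 0.1 FPKM, with a median of 0.316 FPKM against 2.38 FPKM for all genes tested.

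The 12 most abundant members held 40.2% of the summed level of all members. LINC02331, a lincRNA on chromosome 14 with its start 107879 bases from that of BMP4, led with 7.36, 9.19 and 9.48 FPKM in the GapNC libraries and 11.1, 11.8 and 12.7 FPKM in the libraries labelled GapC9. Those groups did not overlap, yet the log2 fold change of 0.45 (SE 0.13) had an adjusted p of 0.101 in limma. LINC01106 and LINC01123 came next, at means of 6.90 and 6.73 FPKM. They are copies on chromosome 2 that share most of their sequence: 89.2% of the 50-base words of LINC01106 and 92.2% of those of LINC01123 occur in other genes, so how StringTie divided fragments between them is uncertain. LINC01106 stood at 5.44, 5.93 and 5.86 FPKM in GapNC and 8.64, 7.38 and 8.14 FPKM in GapC9 (log2 fold change 0.48, SE 0.11, adjusted p = 0.0552). LINC01123 overlapped between the groups, at 5.53, 7.89 and 6.41 FPKM against 5.53, 7.74 and 7.30 FPKM (log2 fold change 0.05, SE 0.19). LINC02331 was above LINC01106 in each of the 6 libraries, while from the second place to the twelfth the ranges of neighbors in this order overlapped.

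LINC00839, at 5.29 ± 0.523 FPKM in GapNC and 7.71 ± 1.14 FPKM in GapC9 (SD, n = 3), did not overlap between the groups (log2 fold change 0.53, adjusted p = 0.0894). LINC00513, at 4.03 ± 0.317 and 4.38 ± 0.521 FPKM, and LINC00326, at 3.69 ± 0.290 and 3.56 ± 0.154 FPKM, overlapped. LINC00467 encodes a small mitochondrial protein besides acting as an RNA. It was at 1.38, 3.80 and 4.11 FPKM in GapNC and 4.27, 3.98 and 3.78 FPKM in GapC9, and only GapNC library 1 was low. LINC00623, a copy-rich locus with 64.6% shared words, stood at 1.96 ± 0.159 and 2.42 ± 0.313 FPKM (adjusted p = 0.263), and LINC00963, first studied in prostate cancer, at 2.36 ± 0.241 and 1.66 ± 0.145 FPKM (log2 fold change -0.49, adjusted p = 0.0903). The other 3 of the 12, LINC00973, LINC00094 and LINC00205, passed the adjusted test and are described below.

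All members together summed to 133, 141 and 133 FPKM in the GapNC libraries and to 144, 146 and 144 FPKM in those labelled GapC9. As a share of the summed FPKM of a library this was 0.0796%, 0.0888% and 0.0870% against 0.0902%, 0.0952% and 0.0932%. Every GapC9 library was above every GapNC library, and no test was made on this sum because it is led by a few members. The typical member lay near 0, since the median log2 fold change was -0.01, with 97 members above 0 and 99 below, while the median of all genes tested was -0.08 and 56.4% of them were below 0.

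The comparison of GapC9 with GapNC asks which transcripts differ after the CASC9 GapmeR. When the group means had to differ 2-fold or more (a ratio of 2, or of 0.5 in the other direction) with an unadjusted limma p under 0.05, 9 members were higher in the libraries labelled GapC9 (4.59% of 196), where 2.1% of all genes tested were, and 12 were lower (6.12%), where 4.32% of all were. At a Benjamini-Hochberg adjusted p under 0.05 in limma, 6 members were higher (3.06%, background 1.89%) and 7 lower (3.57%, background 5.1%). An unadjusted p under 0.05 in either direction was reached by 38 members (19.4%, background 25.9%). The groups did not overlap for 25 members that were higher (12.8%, background 12.6%) and 24 that were lower (12.2%, background 21.6%). Fold calls are commoner among low genes of any kind: under 1 FPKM, 3.76% of all genes tested were called higher and 5.36% lower, and 6 and 11 of the 164 members under 1 FPKM were. The spread within groups had a median SD of 0.357 on the log2 scale for members and 0.261 for all genes tested, and at 1 FPKM or more both were close, 0.219 and 0.218.

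The adjusted counts moved with the library left out. They were 2 higher and 4 lower without GapNC 1, 0 and 1 without GapNC 3, 1 and 0 without GapC9 1, and 0 and 0 without GapNC 2, GapC9 2 or GapC9 3. The calls among all genes tested moved with them, from 1.89% higher and 5.1% lower to 1.5% and 3.56% without GapNC 1 and to at most 0.237% and 0.524% without any of the other 5. In these limma fits 31 to 42 members had an unadjusted p under 0.05, where 19.3% to 25.3% of all genes tested did. The libraries also differed in their relation to GC content. GapNC 1 had a Spearman's correlation of 0.616 across genes and 0.273 across members. The other 5 libraries ran from -0.376 to 0.0287 across genes, with GapC9 2 (-0.336) and GapC9 3 (-0.376) lowest. After a GC correction 13 members passed the adjusted test as higher and 7 as lower, where 6.58% and 7.69% of all genes tested did.

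**Figure D2:**
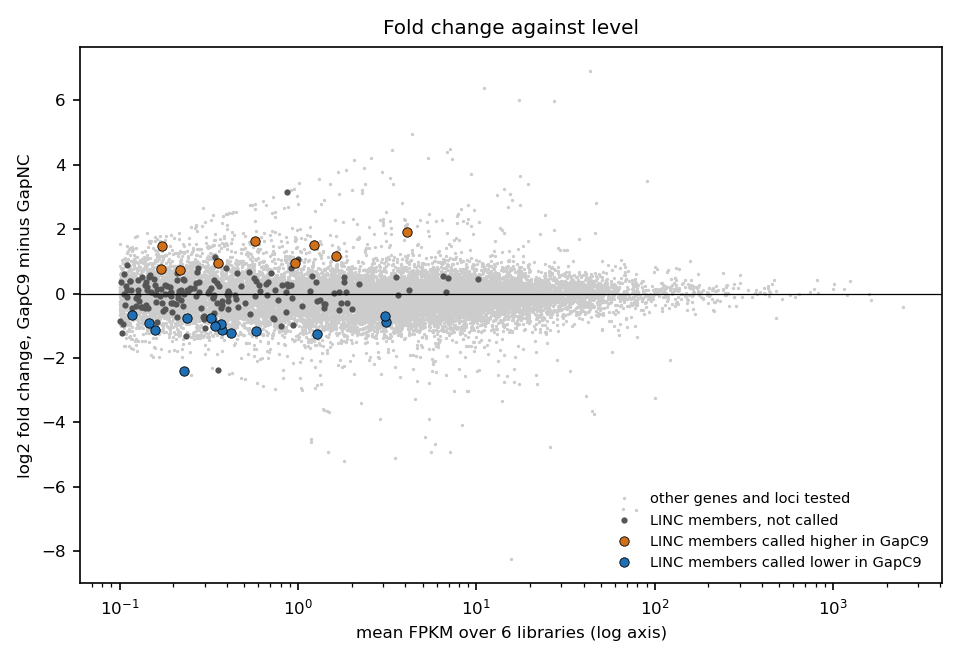
Log2 fold change of GapC9 over GapNC on the log2(FPKM + 0.1) scale (y axis) against the mean FPKM over 6 libraries (x axis, log scale), 1 point per gene or locus. Grey points are other genes tested, dark points LINC members that were not called, orange and blue points the members called higher and lower by either rule; most called members lie under 1 FPKM.

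Of the 6 members that rose at an adjusted p under 0.05, LINC00973 had the largest fitted change. LINC00973 is a 2-exon lincRNA on chromosome 3 known to be induced in colon cancer cells by chemotherapy drugs. It was listed at 1.87, 2.49 and 0.934 FPKM in the GapNC libraries and at 7.47, 5.03 and 6.87 FPKM in the libraries labelled GapC9. Each GapC9 value was above each GapNC value, and the means differed 3.66-fold (log2 fold change 1.89, SE 0.36, adjusted p = 0.0395). These levels correspond to about 40.0 fragments per GapNC library and 146 per GapC9 library. Its start lies 79369 bases from DCBLD2, the nearest coding gene, which ranged from 20.1 to 50.3 FPKM in GapNC and from 11.6 to 29.5 FPKM in GapC9, with overlap.

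LINC00324, a lincRNA beside the mitotic kinase gene AURKB on chromosome 17, stood at 0.273, 0.171 and 0.225 FPKM in GapNC and at 0.665, 1.37 and 0.766 FPKM in GapC9. The groups were apart, with GapC9 2 highest, and the ratio was 4.18 (log2 fold change 1.63, SE 0.30, adjusted p = 0.0360). AURKB, whose start is 13443 bases away, averaged 22.5 ± 3.39 FPKM in GapNC and 15.4 ± 0.792 FPKM in GapC9 and did not overlap either, in the other direction (log2 fold change -0.53, adjusted p = 0.0679). LINC00847, at chr5:180830957-180835726, stood at 0.521, 0.912 and 0.417 FPKM and at 1.79, 1.75 and 1.96 FPKM, a 2.97-fold difference with tight GapC9 values (log2 fold change 1.49, SE 0.27, adjusted p = 0.0345). Its exons overlap HEIH on the opposite strand, a noncoding RNA studied in liver cancer. HEIH was listed at 5.06 FPKM in GapNC 3, 6.69 FPKM in GapC9 1 and 0 in the other 4 libraries, and without strand reads of the pair cannot be told apart.

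LINC02535, on chromosome 6 with its start 59398 bases from NT5E, stood at 0.770, 1.11 and 1.05 FPKM in GapNC and at 2.12, 2.66 and 2.10 FPKM in GapC9. The groups did not overlap, and the ratio was 2.35 (log2 fold change 1.16, SE 0.18, adjusted p = 0.0293). LINC00672, which GENCODE types as protein coding, stood at 0.183, 0.216 and 0.234 FPKM and at 0.589, 0.486 and 0.426 FPKM, without overlap (ratio 2.37, log2 fold change 0.94, SE 0.19, adjusted p = 0.0442). LINC00334 was the scarcest of the 6, at 0.0358, 0.0479 and 0.0514 FPKM in GapNC and at 0.361, 0.267 and 0.278 FPKM in GapC9. The groups were far apart for it (log2 fold change 1.46, SE 0.22, adjusted p = 0.0261), but the GapNC level corresponds to about 1.46 fragments per library, and its exons overlap POFUT2 on the opposite strand. Every GapNC value lay under 0.1 FPKM, so LINC00334 became a member only through the GapC9 libraries.

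With 5 libraries in place of 6, each of these calls was lost at the adjusted threshold in at least 5 of 6 fits. LINC00973 had an adjusted p of 0.0653 to 0.134, LINC00324 of 0.0639 to 0.108, LINC00847 of 0.0560 to 0.123 and LINC00672 of 0.0761 to 0.140 whichever library was left out, while LINC02535 (0.0414) and LINC00334 (0.0390) passed only without GapNC 1, and not without any of the other 5 (0.0743 to 0.112 and 0.0644 to 0.0978). All 6 kept a ratio of at least 2 with an unadjusted p under 0.05 in 6 of 6 such fits.

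Another 3 members were higher by the fold and the unadjusted p only. LINC01021, better known as PURPL, is a p53-induced RNA that lowers p53 levels. It stood at 0.439, 0.683 and 0.765 FPKM in GapNC and at 1.02, 1.55 and 1.34 FPKM in GapC9, without overlap (ratio 2.07, log2 fold change 0.96, SE 0.25, adjusted p = 0.0743 in limma). The ratio was 1.80 without GapNC 1 and 1.88 without GapC9 2. LINC01460 stood at 0.0757, 0.156 and 0.0733 FPKM against 0.235, 0.268 and 0.218 FPKM (ratio 2.36, adjusted p = 0.12 in limma), and lost the call without GapC9 2 (unadjusted p = 0.0595 in limma). LINC00518, known as a melanoma marker, stood at 0.104, 0.162 and 0.143 FPKM against 0.25, 0.4 and 0.25 FPKM (ratio 2.20, adjusted p = 0.126 in limma), with a ratio of 1.96 without GapNC 1 and 1.83 without GapC9 2.

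**Figure D3:**
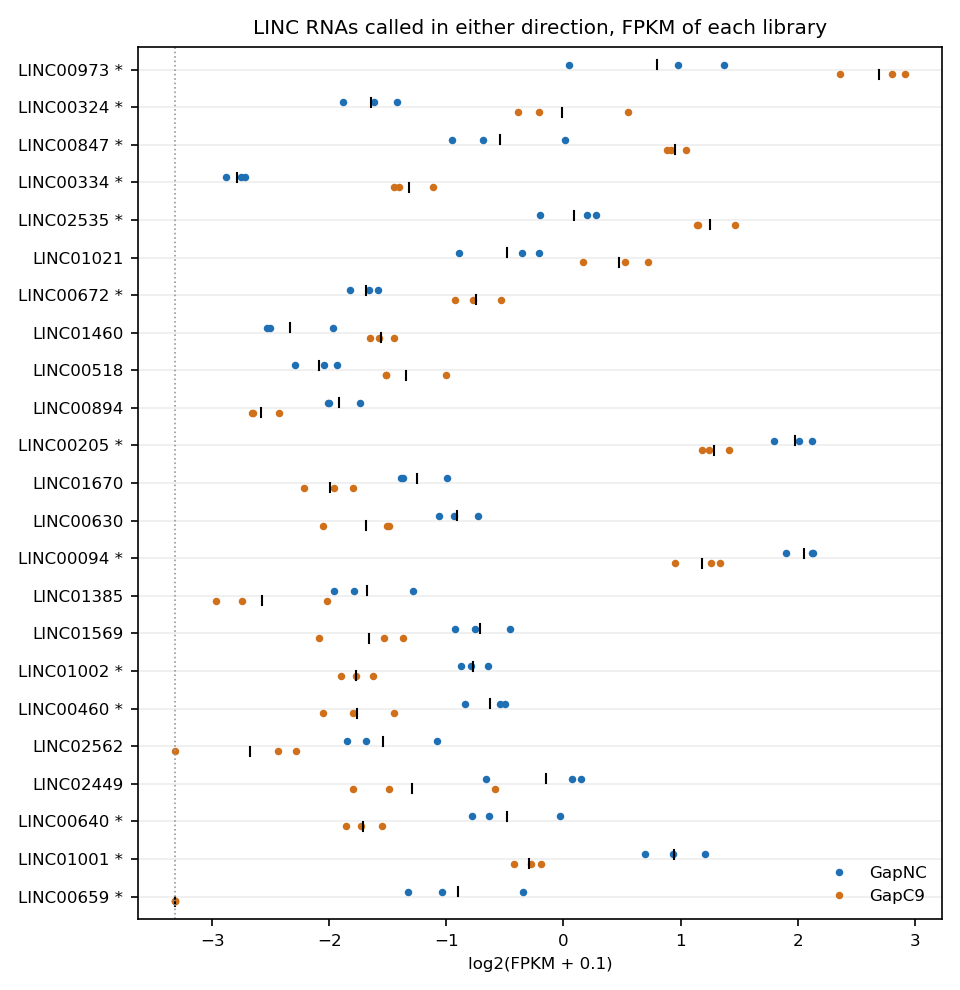
FPKM of each library on the log2(FPKM + 0.1) scale (x axis) for the 23 members called by either rule (y axis, ordered by log2 fold change), with GapNC in blue and GapC9 in orange, black ticks at group means of the log2 values and the dotted line at 0 FPKM. Asterisks mark the 13 members past the adjusted threshold, and the groups overlap only for LINC02449.

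Among the 7 members that fell at an adjusted p under 0.05, LINC00659 was the one listed at 0 in a whole group. LINC00659 is a 2-exon RNA on chromosome 20, at 20:62774128-62775412 in GRCh38. It was listed at 0.685, 0.386 and 0.299 FPKM in GapNC and at 0 in all 3 libraries labelled GapC9 (adjusted p = 0.0192). The GapNC mean corresponds to about 5.81 fragments per library, and no fold is given against a group listed at 0. LINC00659 became a member only through the GapNC libraries. Without GapNC 1 or GapNC 3 the adjusted p was 0.0271 and 0.0496, and without any of the other 4 libraries it was 0.0690 to 0.0874.

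LINC00094 and LINC00205 rested on the most fragments of those that fell, about 547 and 132 per GapNC library. LINC00094, now BRD3OS, is transcribed opposite to BRD3, a bromodomain reader of acetylated histones. The exons of the pair overlap, and without strand their reads there cannot be told apart. LINC00094 stood at 4.26, 4.28 and 3.64 FPKM in GapNC and at 2.42, 1.83 and 2.30 FPKM in GapC9, a 1.86-fold lower mean without overlap (log2 fold change -0.87, SE 0.15, adjusted p = 0.0316). LINC00205, which starts 152 bases from POFUT2 and runs the other way, stood at 3.92, 3.37 and 4.25 FPKM and at 2.57, 2.17 and 2.27 FPKM, 1.65-fold lower and also without overlap (log2 fold change -0.69, SE 0.14, adjusted p = 0.0428). Neither passed the adjusted threshold when any 1 library was left out, at 0.0656 to 0.110 and 0.08 to 0.149.

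LINC00460, an RNA reported at raised levels in colorectal and other carcinomas, stood at 0.459, 0.608 and 0.587 FPKM in GapNC and at 0.266, 0.188 and 0.141 FPKM in GapC9. The groups were apart and the GapC9 mean was 2.78-fold lower (log2 fold change -1.14, SE 0.23, adjusted p = 0.0434). LINC00640, a 5-exon RNA on chromosome 14, stood at 0.882, 0.545 and 0.481 FPKM and at 0.242, 0.175 and 0.201 FPKM, 3.09-fold lower (log2 fold change -1.23, SE 0.25, adjusted p = 0.0455). Their GapC9 means rest on about 4.72 and 3.44 fragments per library, and leaving out any 1 library gave adjusted p-values of 0.0612 to 0.139 and 0.0595 to 0.151, with the fold and unadjusted p kept in 6 of 6 fits.

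LINC01001 and LINC01002 lie near chromosome ends, at 11:127204-139612 and 19:198264-239440 in GRCh38, and belong to families of near-identical copies. LINC01001 fell from 2.21, 1.52 and 1.81 FPKM to 0.778, 0.647 and 0.723 FPKM, 2.58-fold and without overlap (log2 fold change -1.24, SE 0.17, adjusted p = 0.0238). Of its 50-base words 86.5% occur in other genes, mostly AL669831.1, which stood at 3.51 ± 0.525 FPKM in GapNC and 1.63 ± 0.0376 FPKM in GapC9 (log2 fold change -1.05, adjusted p = 0.0211). LINC01002 stood at 0.446, 0.540 and 0.478 FPKM and at 0.192, 0.168 and 0.223 FPKM, 2.51-fold lower (log2 fold change -0.999, SE 0.18, adjusted p = 0.0351). It shares 70.7% of its words with other genes, mostly FAM157A, which stood at 1.59 ± 0.297 and 0.298 ± 0.142 FPKM (log2 fold change -2.15, adjusted p = 0.0269). Members and copies were lower together, and which copy the fragments came from cannot be told apart. Without 1 library the adjusted p of LINC01001 was 0.0373 without GapNC 1 and 0.0662 to 0.103 otherwise, and that of LINC01002 was 0.0523 to 0.125.

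A further 7 members were lower by the fold and the unadjusted p only, at adjusted p-values of 0.0874 to 0.178 in limma. LINC01569 (ratio 0.432), LINC02562 (0.250), LINC00894 (0.408), LINC00630 (0.498), LINC01670 (0.472) and LINC01385 (0.340) did not overlap between the groups. Of these, LINC02562, LINC00894 and LINC01385 averaged under 0.1 FPKM in GapC9, so they became members only through the GapNC libraries. Their GapC9 means correspond to about 1.17, 5.45 and 1.37 fragments per library. LINC02449 stood at 0.952, 1.01 and 0.532 FPKM against 0.255, 0.187 and 0.566 FPKM, and GapC9 3 lay above GapNC 3. Each of the 7 lost the call when at least 1 library was left out: LINC01569 kept it in 5 of 6 fits, LINC02562, LINC00630 and LINC01670 in 4, LINC00894 in 3, and LINC02449 and LINC01385 in 2. The libraries were GapC9 3 for LINC01569 (ratio 0.517); GapNC 2 and GapC9 1 for LINC02562 (unadjusted p = 0.0715 and 0.0516 in limma); GapNC 3 and GapC9 1 for LINC00630 (ratios 0.540 and 0.584); and GapNC 2 and GapC9 3 for LINC01670 (0.537 and 0.530). For LINC00894 they were GapNC 3, GapC9 1 and GapC9 2 (unadjusted p of 0.0561 to 0.0609 in limma), and for LINC02449 and LINC01385 they were GapNC 1, GapNC 2, GapC9 1 and GapC9 2 (0.0754 to 0.0852 and 0.0702 to 0.114 in limma).

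A total of 21 members (10.7%) were listed at 0 in at least 1 library, as against 7.09% of all genes tested, and 11 were at 0 in 3 or more libraries. LINC00294 had the largest fitted change of any member and no call. It was listed at 0 in all GapNC libraries and in GapC9 1, and at 2.94 and 2.26 FPKM in GapC9 2 and GapC9 3, a level that few members reach. LINC01311, named after its values were seen, was listed at 0 in GapNC 1 and in all GapC9 libraries and at 1.21 and 0.942 FPKM in GapNC 2 and GapNC 3. The groups overlapped for both (unadjusted p = 0.0516 and 0.0538 in limma), and both became members only through 2 libraries of 1 group. With 1 library left out, the adjusted p in limma ran from 0.00592 to 0.409 for LINC00294 and from 0.0151 to 0.381 for LINC01311. The lowest came without GapC9 1 or GapNC 1, the library at odds with its group. That omission leaves 1 group at 0 and the other above 0, so nothing is concluded from it. LINC00346, at 0.502 FPKM in GapNC 2, 0.380 and 0.371 FPKM in GapC9 2 and GapC9 3 and 0 elsewhere, shows the same kind of jump within groups.

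Members were set beside their nearest coding genes. The nearest coding gene started a median of 46.2 kb from the start of the member, and 45 members had one within 10 kb. For 141 members that gene was itself tested, and member and neighbor changed in the same direction in 78 pairs (55.3%), with a Spearman correlation of 0.0666 between the 2 log2 fold changes. Within 10 kb, 22 of 35 pairs had the same sign, with a correlation of 0.104. Pairs share libraries and, in places, reads, so these are descriptions without a test. By the fold and the unadjusted p, 2 of these 35 neighbors were called, FOXD1 and KMT2E, where 6.42% of all genes tested were called in either direction.

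**Figure D4:**
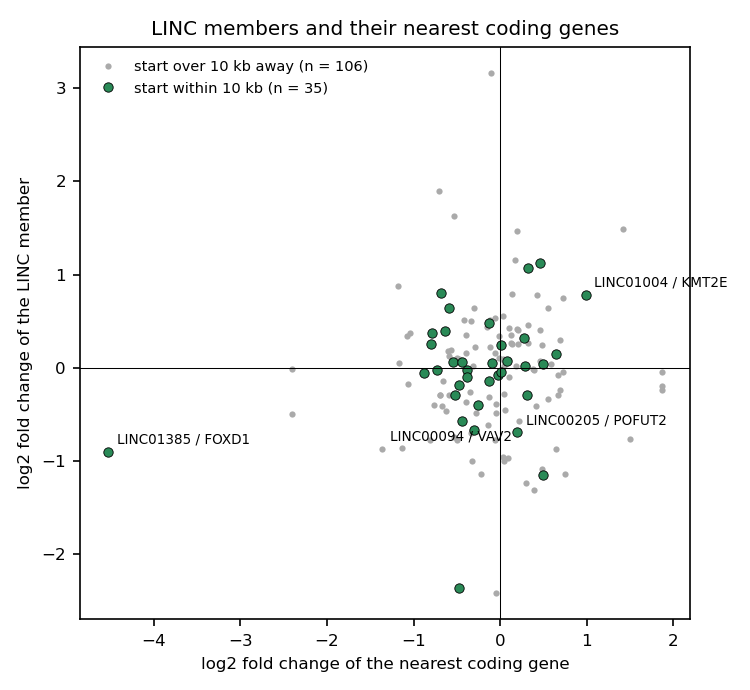
Log2 fold change of the LINC member (y axis) against that of its nearest coding gene (x axis) for the 141 pairs in which both were tested, with the 35 pairs that start within 10 kb in green. No trend is seen, and LINC01385 with FOXD1 lies far to the left because FOXD1 was nearly unlisted in the GapC9 libraries.

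The pairs below were singled out after their values were seen. LINC01385 starts 2971 bases from FOXD1, a forkhead transcription factor, and runs the other way. LINC01385 stood at 0.310, 0.190 and 0.157 FPKM in GapNC and at 0.0275, 0.0495 and 0.146 FPKM in GapC9 (log2 fold change -0.90, SE 0.35, adjusted p = 0.178), and GapC9 3 nearly reached the GapNC values. FOXD1 was at 3.06, 1.80 and 2.25 FPKM in GapNC and at 0.0152, 0 and 0 FPKM in GapC9 (adjusted p = 0.00223). Both were lower in GapC9, but LINC01385 became a member only through the GapNC libraries. It rests on about 4.02 fragments per GapNC library, and its call was lost without GapNC 1, GapNC 2, GapC9 1 or GapC9 2.

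LINC01004 starts 1135 bases from KMT2E, a SET-domain chromatin protein, on the opposite strand. KMT2E rose from 5.42 ± 0.0886 to 10.9 ± 0.371 FPKM (log2 fold change 0.99, adjusted p = 0.0147), and LINC01004 was higher with it by a log2 fold change of 0.78 that did not pass (unadjusted p = 0.0189 in limma). LINC00518 starts 15215 bases from TFAP2A, an AP-2 transcription factor, which rose from 1.72 ± 0.179 to 2.90 ± 0.301 FPKM (log2 fold change 0.73, adjusted p = 0.0400). LINC00094 fell together with VAV2, whose start lies 32835 bases away (7.66 ± 2.11 to 2.84 ± 0.273 FPKM, log2 fold change -1.37, adjusted p = 0.0314), but not with BRD3 on its other strand, at 4.08 ± 0.272 and 4.94 ± 0.498 FPKM (log2 fold change 0.27, adjusted p = 0.231). How StringTie divided reads between LINC00094 and BRD3 where their exons overlap is uncertain.

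The POFUT2 locus on chromosome 21 holds a called member at each end. POFUT2, a protein O-fucosyltransferase, ranged from 2.21 to 6.30 FPKM in GapNC and from 3.41 to 4.53 FPKM in GapC9, with overlap (log2 fold change 0.20, adjusted p = 0.789). LINC00205, at 21:45288050-45297806, fell and LINC00334, at 21:45234340-45264548, rose, both on the plus strand. LINC00334 shares 15.5% of its words with POFUT2 exons on the other strand, while LINC00205 shares 0%.

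**Figure D5:**
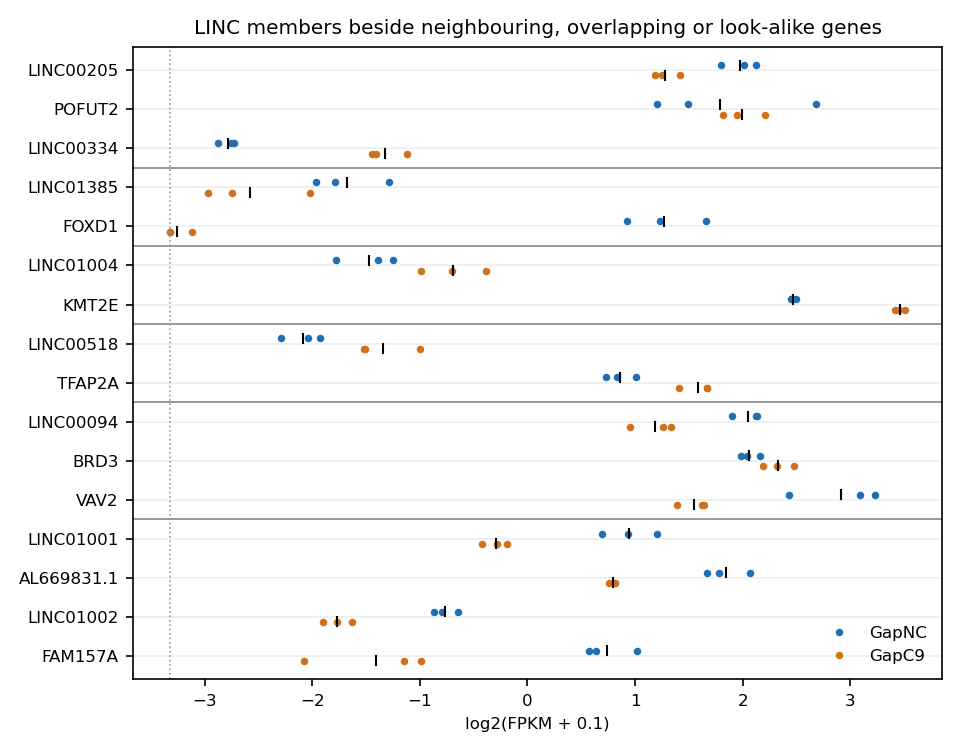
FPKM of each library on the log2(FPKM + 0.1) scale (x axis) for members and for neighboring, overlapping or near-identical genes (y axis, loci separated by lines), with GapNC in blue, GapC9 in orange, black ticks at means of the log2 values and the dotted line at 0 FPKM. FOXD1 falls to the line of 0 FPKM in the GapC9 libraries, KMT2E and LINC01004 are both to the right there, and POFUT2 overlaps between the groups while LINC00205 and LINC00334 move apart.

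Beyond their low level, the members were shorter and had fewer exons than other genes. Their longest listed transcript had a median of 1458 bases and 3 exons, where all genes tested had 3021 bases and 8 exons, and the median GC content was 49.3% and 50.2%. GENCODE types 147 of them as lincRNA, 19 as antisense, 11 as processed transcript, 11 as transcribed unprocessed pseudogene, 4 as protein coding, 3 as bidirectional promoter RNA and 1 as transcribed unitary pseudogene. Despite the name intergenic, 34 gene bodies overlap a coding gene, and 62 members share exon bases with a gene on the opposite strand. More than 10% of the 50-base words occurred in other genes for 51 members. The 118 members with neither feature include 6 called higher and 7 lower by the fold and the unadjusted p, and 4 and 4 by the adjusted p, beside 2.1% and 4.32% and 1.89% and 5.1% of all genes tested. The 16-base CASC9 GapmeR matched no spliced transcript of a member with fewer than 4 mismatches, and of the 19 members at 4 mismatches 1 was called, as higher. The closest match of the control GapmeR to a member had 2 mismatches, in 1 member, LINC00680, named here after its values were seen, which was not called (log2 fold change 0.25, adjusted p = 0.688).

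LINC RNAs that had been studied in cancer cells were taken as a list of 25 names, 15 of which were tested. The list had 5 called higher and 1 lower by the fold and the unadjusted p, and 4 higher (LINC00324, LINC00847, LINC00672 and LINC00973) and 1 lower (LINC00460) by the adjusted p. Of all genes tested, 2.1% were higher and 4.32% lower by the fold and the unadjusted p, and 1.89% and 5.1% by the adjusted p. Those 4 and LINC00294 were put on it because the study's own list of changed genes from these libraries names them, so the count is not independent evidence. Of the 10 others tested, 1 was called higher (LINC01021, by the fold and the unadjusted p only) and 1 lower (LINC00460, by either rule). Their median log2 fold change was -0.13, with 4 of 10 above 0. LINC00511, LINC01234, LINC01138, LINC00662 and LINC00339 had log2 fold changes of -0.40, -0.15, -0.12, 0.27 and -0.19 and adjusted p-values of 0.183 to 0.774 in limma. Of 10 names later found to encode small proteins, LINC00116 (mitoregulin; 1.56 ± 0.203 and 1.23 ± 0.132 FPKM) and LINC00467 were tested and 0 was called in either direction by either rule, nor did either have an unadjusted p under 0.05 (0.0859 and 0.265 in limma).

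Other long noncoding RNAs and the RNA exosome, which trims and degrades many noncoding RNAs in the nucleus, were listed for comparison. Of 22 tested rows of named long noncoding RNAs, DANCR and MIR22HG were called higher by the fold and the unadjusted p, and DANCR and TUG1 by the adjusted p. JPX was also higher at an unadjusted p under 0.05 (0.0153 in limma). With 0 lower by either rule or at that threshold, LINC-PINT came nearest (unadjusted p = 0.0549 in limma). Among all genes tested, 2.1% were higher and 4.32% lower by the fold and the unadjusted p, and 1.89% and 5.1% by the adjusted p. TUG1 stood at 6.23 ± 0.101 FPKM in GapNC and 11.2 ± 1.04 FPKM in GapC9 (log2 fold change 0.83, adjusted p = 0.0192). Of 17 tested rows of exosome subunits and adaptors, the exosome cofactor gene MPHOSPH6 (21.4 ± 4.81 to 9.07 ± 0.562 FPKM, log2 fold change -1.21, adjusted p = 0.0267) and the core subunit gene EXOSC9 (16.1 ± 1.36 to 10.0 ± 0.217 FPKM, log2 fold change -0.67, adjusted p = 0.0269) fell and 0 rose, where 5.1% and 1.89% of all genes tested were lower and higher. At an unadjusted p under 0.05 in limma, C1D and PAPD5 were also higher, and EXOSC4, EXOSC10, SKIV2L2, ZFC3H1 and 1 of the 2 rows of EXOSC2 were also lower. That threshold was passed by 25.9% of all genes tested, in either direction. The catalytic subunit genes EXOSC10 and DIS3 had log2 fold changes of -0.40 (adjusted p = 0.0565) and 0.26 (adjusted p = 0.466).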

How the data were processed

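RNA-seq of poly(A) RNA from HCT-116 cells was used, 3 GapNC and 3 GapC9 libraries grouped by the transfection label, with 0 sample columns left unused. The study gives 24 h after transfection in its results and 48 h in its methods. The authors aligned reads with HISAT and deposited StringTie FPKM. The submitters' processing notes name HISAT2 2.0, StringTie 1.3.0 and Bowtie 0.12.2, and a mouse build whose role is not given. Use of strand is not given in the sources used here. The table gives FPKM and no read counts, so single values carry no counting error, and each FPKM depends on the abundant RNAs of its library.

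limma 3.58.1 in R 4.3.3 (lmFit, eBayes with trend) was fitted to log2(FPKM + 0.1) of deposited values, without further scaling, for the 16028 genes and loci averaging 0.1 FPKM or more, all 6 libraries in 1 fit, with Benjamini-Hochberg adjustment over all of them. The pseudocount shrinks the fitted changes of scarce RNAs. Since the filter used the mean of all 6 libraries, a member low in 1 group can have passed through the other group alone. Ratios are of mean FPKM, SEs come from limma and SDs from 3 libraries. The rule of ratio and unadjusted p follows the thresholds of the study. Coordinates, gene types, lengths and neighbors came from GENCODE on GRCh38, matched through listed Ensembl transcripts for 196 of 196 members. Shared words are 50-base runs found in transcripts of other genes. Estimated fragments use the longest listed transcript. The fit was tested on simulated data. Known changes were placed there only in genes of at least 1 FPKM, so scarcer members were not covered.

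Members, lists and tests were chosen with earlier results of these data known. Named were the 12 most abundant members, every called member, members at 0 in 1 whole group, members of the lists and those beside the threshold, plus features said to be singled out later. Alternatives were pseudocounts of 1 and 0.01, filters at 1 FPKM, on zeros or none, scaling to equal medians or quantiles, robust or trend-free limma, blocking on replicate number, a GC correction, the fitted fold change and the omission of each library.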

Additional observations from a re-analysis of the deposited data

How the results depend on the processing

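The median log2 fold change of the members stayed near 0 in every alternative run (-0.05 to 0.03 with 1 library left out, 0.14 under median scaling, which moved the median of all genes from -0.08 to 0.07). Counts by the ratio and the unadjusted p were 3 higher and 1 lower among the 32 members left by a filter of 1 FPKM (1.13% and 3.71% of all genes fitted). They were 5 and 6 with the fitted fold change in place of the ratio of means, as few fitted changes of low genes reach 1. The share of all genes called by the fitted fold change was not computed, so these 2 counts have no background. Counts by the adjusted p were 4 higher and 3 lower with the filter of 1 FPKM (3.03% and 8.7% of all genes fitted), 1 and 2 without a filter (0.523% and 1.24%), 8 and 3 under median scaling (3.01% and 2.66%), 7 and 4 under quantile normalization (2.16% and 3.22%) and 13 and 7 after the GC correction (6.58% and 7.69%), so calls among all genes moved too. The cause of these moves was not tested. With 1 library left out the adjusted counts were 0 to 2 higher and 0 to 4 lower (0.0998% to 1.5% and 0.0998% to 3.56% of all genes). By the ratio and the unadjusted p they were 9 to 13 and 8 to 17 (2.07% to 2.43% and 3.59% to 5.05% of all genes). Lower calls made up 57.1% of members called by ratio and unadjusted p and 67.3% of all genes called. These shares were 47.6% and 58.6% under median scaling, 42.9% and 66.8% without GapNC 2, 42.1% and 69.9% without GapC9 1, and 25% and 76.6% with the filter of 1 FPKM, where 4 members were called.

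Same-numbered libraries of the 2 groups correlated at 0.0970, 0.0398 and 0.0243 in their deviations from the group means. GapNC 1 and GapNC 2 each correlated best with the GapC9 library of the same number, and GapNC 3 with GapC9 2 (0.0578). These correlations were low, so the numbers were not taken to pair the libraries. With a replicate block, 0 members were higher and 0 lower by the adjusted p in limma, as were 0 of all 16028 genes. At an unadjusted p under 0.05, 19 members were higher and 15 lower, where 28.5% of all genes passed in either direction. By the ratio and the unadjusted p, 10 members were higher and 9 lower, where 2.05% and 4.19% of all genes were. For called members other than LINC02449 the groups did not overlap, so only scaling or the GC correction could have reversed them. None of the 23 called members changed direction under an alternative. Of 19 uncalled members named with their values, 5 did: LINC00326 (log2 fold change 0.0972 under median scaling, 0.0791 under quantile normalization), LINC01138 (0.0204 under median scaling), and, with 1 library left out, LINC00326 (-0.0972 to 0.0111), LINC01123 (-0.0677 to 0.197), LINC01234 (-0.297 to 0.0455) and LINC00339 (-0.380 to 0.00266). LINC02331, LINC01106 and LINC00839 passed the adjusted threshold after the GC correction (0.0187, 0.0176 and 0.0263 in limma). Without counts, members near 0.1 FPKM are the least precise, and calls there rest on few fragments.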
